A study of Mus musculus with 147 samples.

Results

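Interstitial and peritubular cells of the fetal mouse testis were followed from E13.5 to E18.5 (E, embryonic day). They were taken from the wild-type cells whose names carry the gate Negative, that is, gonadal cells without the germ-line reporter signals, and were chosen by their transcripts. A cell was kept when the level of Nr2f2 was at or above 100 CPM, where CPM is the count of a gene per 1000000 UMIs, while Sox9 was under 100, Ddx4 under 150 and Cyp11a1 under 500 CPM. A UMI is a molecular tag that is counted once per captured transcript. These conditions held in 266 of 471 Negative cells that passed the depth filter (56.5%, exact 95% interval 51.9% to 61%), and these 266 are 2.04% of the 13032 cells of the series. They are called the selected cells below, and the remaining 205 are the other Negative cells.

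The embryos came from C57BL/6 females mated with males that carry the BVSC reporters, mVenus under Prdm1 (Blimp1) and ECFP under Dppa3 (Stella), and both classes of cells share this background. All were wild-type and male. Gonads were digested and sorted by flow cytometry, and single cells were then drawn by mouth pipette into lysis buffer with a barcode, so shares of cells describe what was sorted and picked. From E14.5 germ cells were collected by ECFP alone, because the mVenus signal fell. Whether the Negative gate changed with this is not stated. From E13.5 to E16.5 the gonad had been cut into a proximal, a central and a distal piece relative to the mesonephros. Each time-point has 2 biological replicates, R1 and R2, and the cells of 1 time-point and replicate form a pool.

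The interstitium lies between the testis cords and holds steroid-producing Leydig cells, vessels, immune cells and mesenchymal cells from which further Leydig cells arise. NR2F2 (COUP-TFII) is a transcription factor of these mesenchymal progenitors, TCF21 is a transcription factor of the same mesenchyme, and PDGFRA is a receptor for growth factors made in the cords. Desert hedgehog from Sertoli cells signals to the interstitium through the receptor PTCH1 and the GLI factors. Peritubular cells flatten around the cords, lay down basement membrane with the Sertoli cells, and mature into contractile myoid cells that are marked by smooth muscle actin, ACTA2.

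The 12 pools held between 3 and 44 selected cells, from 13 libraries, and between 290174 and 7275800 UMIs summed over the selected cells. A selected cell held 10547 to 660619 UMIs (median 149439) and 2545 to 10307 genes (median 6888). Pool medians of UMIs per selected cell were 115154 to 235591 at E13.5 and E14.5 and 79754 to 109658 at E17.5 and E18.5, so depth fell with day. The pool E17.5 R1 had 3 selected cells and was left out of the fits, which leaves 11 pools and a single pool, E17.5 R2 with 8 cells, at E17.5. All 72 barcodes of the Negative cells occur in more than 1 library.

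Several libraries stood apart. In E14.5 R2, 44 of 48 Negative cells were selected, and Amh, the Sertoli cell hormone, was at 0 CPM and Cyp11a1 at 0.137 CPM in its selected cells. E18.5 R2 had Acta2 at 26.5 CPM, against 148 to 820 CPM in the other pools. E16.5 R1 carried the most globin, with Hba-a1 at 870 CPM, and the most Upk3b, a gene of the surface epithelium, at 294 CPM. The libraries of E13.5 R1 and E18.5 R1 have codes that begin s0307, and all others begin s0505.

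The label of the cells was checked against the 4 markers named for it, of which Nr2f2 was part of the rule and is a description. Over the 11 pools Nr2f2 (chr7:70351944-70366735) lay at 400, 507 and 700 CPM (lowest, median, highest), Pdgfra (chr5:75152292-75198215) at 124, 235 and 534 CPM, and Tcf21 (chr10:22817281-22820174) at 169, 313 and 733 CPM. Acta2 (chr19:34241090-34255590) lay at 26.5, 568 and 820 CPM. All 4 were above 100 CPM in every pool except Acta2 in E18.5 R2. At the level of single cells, at least 1 UMI of Pdgfra was found in 98.1%, of Tcf21 in 94.4% and of Acta2 in 91.4% of the selected cells. In the other Negative cells the same held in 85.4%, 74.6% and 90.7%, but at medians of 16, 12.2 and 32.5 CPM, against 201, 302 and 379 CPM in the selected cells.

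Marker lists of several cell types were then summed, without the 4 genes of the rule, which fixed part of the contrast. The other Negative cells, measured in 9 pools, are given for comparison. The 9 remaining interstitial progenitor markers summed to 1260 to 2537 CPM over the 12 pools (138 to 820 in the other Negative cells). The 7 peritubular myoid markers summed to 613 to 2018 CPM (51.7 to 895).

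Sums of 9 Sertoli, 6 fetal Leydig and 6 germ cell markers had medians of 311, 173 and 105 CPM, against 1719, 1374 and 277 CPM in the other Negative cells. The highest Sertoli sum, 955 CPM, was that of E17.5 R2. Medians of 3 other lists were above those of the other Negative cells. They were 112 against 76.8 CPM for 6 endothelial and 130 against 80.7 CPM for 6 pericyte markers. For 6 markers of surface epithelium and mesonephros they were 47.3 against 29.5 CPM. These medians cover 12 and 9 pools and are not paired. Within the 9 shared pools the list medians of log2 ratios were -0.07, 0.51 and 0, in that order. Of the 6 genes of each list, 1, 5 and 2 had a ratio above 0. Pecam1 of endothelium was lower in the selected cells in all 9. The 5 erythroid markers summed to 28.1 to 2400 CPM (87 to 4856), and in E16.5 R1 their sum exceeded that of the myoid markers. Ptprc of leukocytes and Pax2 of mesonephric ducts were at or near 0, with 2 UMIs and 1 UMI over all 12 pools. Csf1r, another leukocyte marker, had 13 UMIs each in E14.5 R1 and E15.5 R1 and 6 or fewer in the others. The 6 leukocyte markers summed to 0.204 to 56.3 CPM, and the 6 markers of surface epithelium and mesonephros to 6.87 to 570 CPM.

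**Figure D1:**
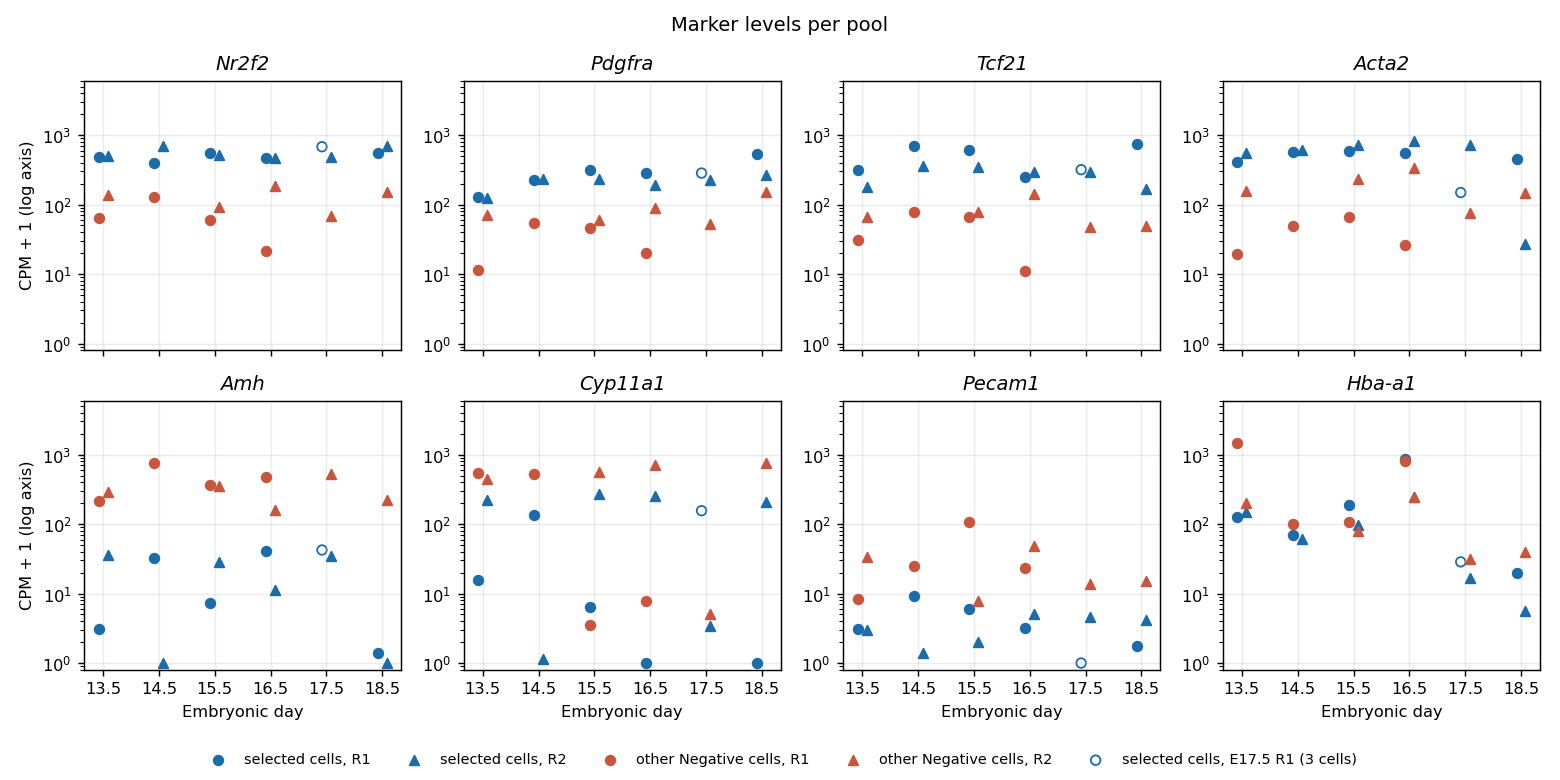
Level in CPM plus 1 (log axis) of 8 markers against embryonic day, 1 point per pool: blue for the selected cells, red for the other Negative cells, circles for R1 and triangles for R2, with the 3-cell pool E17.5 R1 as an open circle. Nr2f2, Pdgfra and Tcf21 of the selected cells lie above those of the other Negative cells of the same pool, Acta2 of E18.5 R2 falls to 26.5 CPM, and Amh and Cyp11a1 reach 0 in some pools.

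The bound on Nr2f2 had 14 selected cells within 100 CPM above it. The 3 selected cells with the least Nr2f2 had 121, 141 and 143 CPM, and the 3 nearest cells that failed on Nr2f2 alone had 95.6, 90.2 and 88.3 CPM. For Sox9 the nearest inside were 99, 98.5 and 86.4 CPM and the nearest outside 101, 123 and 126 CPM. For Cyp11a1 they were 492, 448 and 445 CPM inside and 512, 532 and 560 CPM outside. Lowering the bound on Nr2f2 to 50 CPM would give 277 cells and raising it to 200 CPM would give 252. The share of Negative cells that were selected ranged from 13% in E17.5 R1 (2.78% to 33.6%) to 91.7% in both E14.5 R2 (80% to 97.7%) and E18.5 R1 (73% to 99%).

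The first question was which transcripts changed with age in the selected cells. UMIs were summed per pool and a slope over embryonic day was fitted with edgeR's quasi-likelihood test. Nothing in the labels says how the 2 replicates of a time-point were drawn from litters, so the p-values measure the spread between these pools. The paper lists fewer embryos or gonads per replicate at the later time-points, and gonads were cut into pieces only up to E16.5. Both changed with day, and their part in the slopes was not tested. Of 15706 genes tested, 143 rose and 43 fell at an adjusted p under 0.05, that is 0.91% and 0.274% of genes, or 1.18% in either direction. The count was 84 without E18.5 R2 and 104 without E13.5 R2. Median depth fell with day, and with it as a covariate 19 genes passed. In that fit the slope of Osr1 was 0.86 (adjusted p = 0.115) and the slope of Cd34 was 1.08 (adjusted p = 0.263). Because cells were summed, a lower share of expressing cells and a lower level per cell cannot be told apart.

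The genes named for the largest rise, by a fixed rule, were Cd34, Osr1, Cln3, Tmem100, Adamts5, Ebf1, Pdlim3, Lama2, Ogn, Igfbp6 and Abi3bp. Several encode proteins of connective tissue. Adamts5 is a protease that cleaves proteoglycans, Lama2 a laminin chain of basement membranes, Ogn a small leucine-rich proteoglycan, and Cd34 a sialomucin of stromal and vascular progenitors. Osr1 is a zinc finger factor of urogenital mesenchyme and Ebf1 a transcription factor found in stromal cells. All 11 kept the call when any 1 of the 11 pools was left out.

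Osr1 (chr12:9570116-9581500) was at 17.2 and 41.4 CPM at E13.5 (R1 and R2), 19.8 and 36 at E14.5, 38 and 95.9 at E15.5, 130 and 178 at E16.5, 121 at E17.5 (R2) and 232 and 807 at E18.5. The 3 pools from E17.5 and E18.5 lay above the 4 pools of E13.5 and E14.5. Its slope was 0.88 ± 0.10 log2 per day (SE, 11 pools, edgeR adjusted p = 5.89e-05), and 0.69 without E18.5 R2, the smallest of the leave-one-out values. Adamts5 (chr16:85856173-85901828) went from 19.3 and 32.4 CPM at E13.5 over 25.6 and 56.5, 121 and 58.7, and 67.8 and 127 CPM to 119 CPM at E17.5 and 389 and 554 CPM at E18.5. Its slope was 0.81 ± 0.09 log2 per day (adjusted p = 1.72e-05).

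Cd34 (chr1:194938819-194961279) was at 4.37 and 26.7 CPM at E13.5, 0.64 and 8.66 at E14.5, 30.6 and 21 at E15.5, 23.7 and 63.4 at E16.5, 107 at E17.5 and 275 and 176 at E18.5, with a slope of 0.89 ± 0.15 (adjusted p = 0.00476). The 0.64 CPM of E14.5 R1 rests on 3 UMIs. Without both s0307 pools the slope of Cd34 was 0.77 (adjusted p = 0.0556). Lama2 lay at 7.54 to 44.8 CPM in the 4 pools of E13.5 and E14.5 and at 98.8 to 326 CPM in the 3 latest pools. Tmem100, a membrane protein induced by BMP signalling in endothelium, lay at 7.12 to 23.2 and at 118 to 180 CPM. Pdlim3, a PDZ and LIM domain protein bound to actin filaments, lay at 7.75 to 258 and at 877 to 1056 CPM. For these 3 genes the latest pools lay above the earliest ones. Exons of Cd34, Cln3, Lama2, Hmga2, H2afy2, Clca3a1 and Nnat overlap a gene on the other strand, and the use of strand in counting is not given in the sources used here, so reads of the pairs cannot be told apart. Ebf1 was the exception among the 11, with 8.5 to 122 CPM early and 111 to 619 CPM late.

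**Figure D2:**
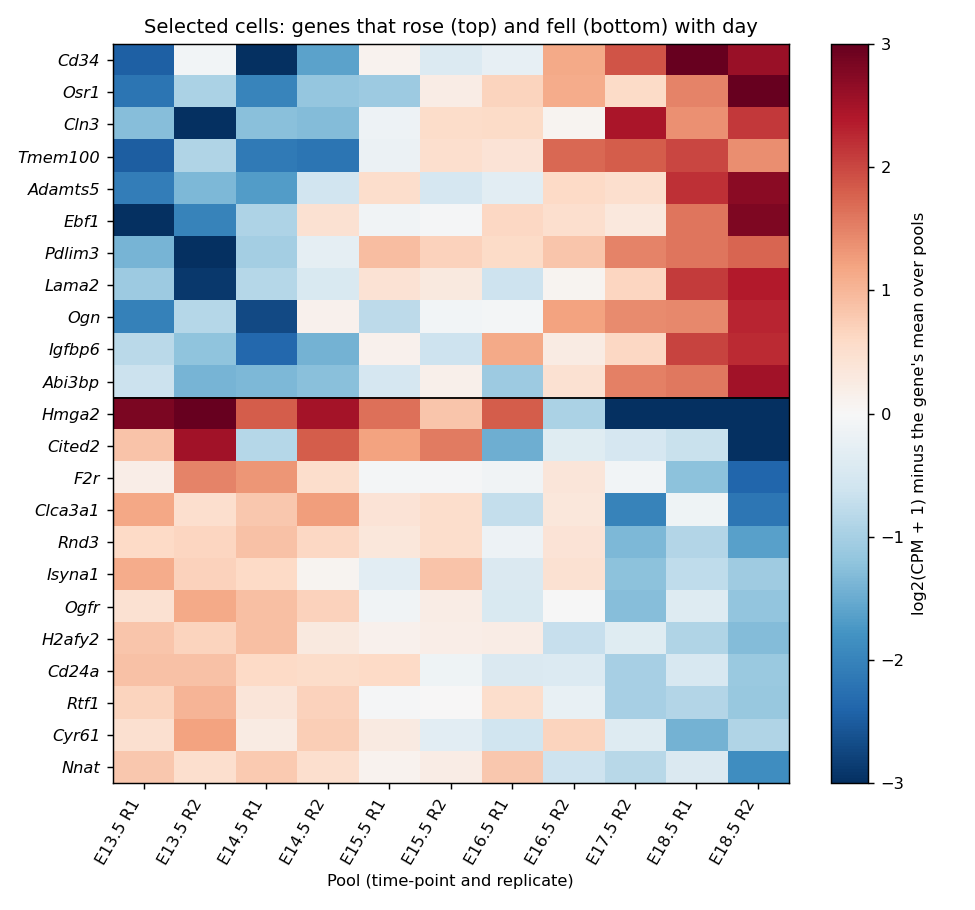
Heat map of 11 leading rises (upper rows) and 12 leading falls (lower rows) per day over the 11 pools with at least 5 selected cells (columns, ordered by time-point); colour gives log2(CPM + 1) minus the gene's mean over pools, and colours stop at 3 in either direction. The upper 11 rows pass from blue to red and the lower 12 from red to blue, with the strongest contrast for Hmga2.

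The 12 genes with the largest fall were Hmga2, Cited2, F2r, Clca3a1, Rnd3, Isyna1, Ogfr, H2afy2, Cd24a, Rtf1, Cyr61 and Nnat. Hmga2 (chr10:120361275-120476469), a chromatin protein of fetal proliferating tissues, was at 214 and 274 CPM at E13.5, 107 and 170 at E14.5, 95.7 and 53.2 at E15.5, and 107 and 14.7 at E16.5. At E17.5 it had 1 UMI (1.21 CPM in R2), and at E18.5 no UMI was counted, which allows up to 1.17 CPM in R1 and 2.34 CPM in R2. All early pools lay above all late ones. Its fitted slope of -1.30 ± 0.23 log2 per day (adjusted p = 0.00642) depends on the prior count because of these zeros.

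Cd24a, which encodes a small glycosylated surface protein, fell from 383 and 382 CPM at E13.5 over 314 and 305, 315 and 190, and 154 and 156 CPM to 104 CPM at E17.5 and 148 and 94.5 CPM at E18.5. The slope was -0.35 ± 0.06 (adjusted p = 0.00265), and no late pool reached an early one. Hmga2, Cd24a, H2afy2 (a macroH2A histone) and Rtf1 (an elongation factor subunit) kept the call without any 1 pool. Rnd3 lost it without E18.5 R2 (adjusted p = 0.0599), Isyna1 without E13.5 R1 or E18.5 R2 and Cyr61 without E13.5 R2 or E18.5 R1, with adjusted p up to 0.0633 and 0.0787. The other 5 were less stable. Cited2 lost the call in 6, F2r and Clca3a1 in 7 each, Nnat in 9 and Ogfr in 10 of the 11 leave-one-out fits, with adjusted p up to 0.193, 0.164, 0.134, 0.144 and 0.161.

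The list of basement membrane and matrix genes had 41 members, all of them tested, and 8 rose while none fell, beside 0.91% of all genes that rose. The median slope of the list was 0.14 log2 per day and that of all genes -0.01. The 8 were the collagen chains Col1a1, Col1a2 and Col6a1, the laminin chain Lama2, the proteoglycans Dcn (decorin) and Ogn, elastin (Eln) and the microfibril protein Mfap5. When 1 pool was left out 3 (without E13.5 R2) to 10 of the list rose, and 5 rose without E14.5 R1. With median depth as a covariate none passed, at a median slope of 0.15, and 2 passed from E13.5 to E16.5 alone.

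Dcn lay at 518 and 269 CPM at E13.5, 515 and 719 at E14.5, 746 and 809 at E15.5, 966 and 890 at E16.5, 1104 at E17.5 and 1016 and 1762 at E18.5, with a slope of 0.36 ± 0.05 (adjusted p = 0.00145). It kept the call without any 1 pool. Col1a1 went from 489 and 341 CPM at E13.5 to 1244 and 1188 CPM at E16.5 and was at 842, 974 and 1017 CPM in the 3 late pools, so its highest values were not the latest. Its slope was 0.25 ± 0.06 (adjusted p = 0.048). The call for Col1a1 was lost in 7 and that for Col1a2 in 8 of 11 leave-one-out fits, with adjusted p up to 0.163 and 0.155, both without E13.5 R2. Col6a1 lost the call without E13.5 R2 (0.0867), and Eln without E13.5 R1, E13.5 R2 or E14.5 R1 (up to 0.1). Mfap5 was between 0 and 4.6 CPM at E13.5 and E14.5 and between 60.3 and 86.7 CPM in the 3 late pools, and lost the call without E13.5 R2 or E18.5 R2 (up to 0.0806).

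Of 11 genes of the insulin-like growth factor (IGF) pathway, 2 rose and none fell, beside 0.91% and 0.274% of all genes. The ligand Igf1 (chr10:87858265-87937042) was at 64.8 and 112 CPM at E13.5, 103 and 155 at E14.5, 264 and 205 at E15.5, 243 and 277 at E16.5, 382 at E17.5 and 356 and 792 at E18.5. Its slope was 0.55 ± 0.06 log2 per day (adjusted p = 5.11e-05), and the late pools lay above the early ones. The binding protein Igfbp6 lay at 21.3 to 63.9 CPM early and at 176 to 541 CPM late (slope 0.70 ± 0.09, adjusted p = 0.000177). Both calls held without any 1 pool, and with the depth covariate that of Igfbp6 was lost (0.59, adjusted p = 0.115). The receptor Igf1r did not pass (0.19 per day, adjusted p = 0.301), and exons of Igf2 overlap another gene on the same strand, so its counts are uncertain.

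Among the hormone receptors Prlr and Esr1 rose, beside 0.91% of all genes that rose. The median slope of the 12 tested genes of the list was 0.38 log2 per day beside -0.01 for all genes. Prlr, the prolactin receptor, was at 16.1 to 49.1 CPM early, 8.44 CPM at E17.5 and 228 and 433 CPM at E18.5, with a slope of 0.64 ± 0.15 (adjusted p = 0.0379). Esr1, an estrogen receptor, was at 3.22 and 8.36 CPM at E13.5, 8.32 and 16.2 at E14.5, 12.5 and 18.4 at E15.5, 12.8 and 59 at E16.5, 13.3 at E17.5 and 42.9 and 81.2 at E18.5, with a slope of 0.65 ± 0.16 (adjusted p = 0.047). At E17.5 Prlr lay below and Esr1 within the range of the early pools, and at E18.5 both lay above it. Prlr lost the call in 7 and Esr1 in 8 of 11 leave-one-out fits, with adjusted p up to 0.3 and 0.253, both without E18.5 R2. Exons of Prlr overlap Gm21973 on the same strand, so its counts are uncertain.

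**Figure D3:**
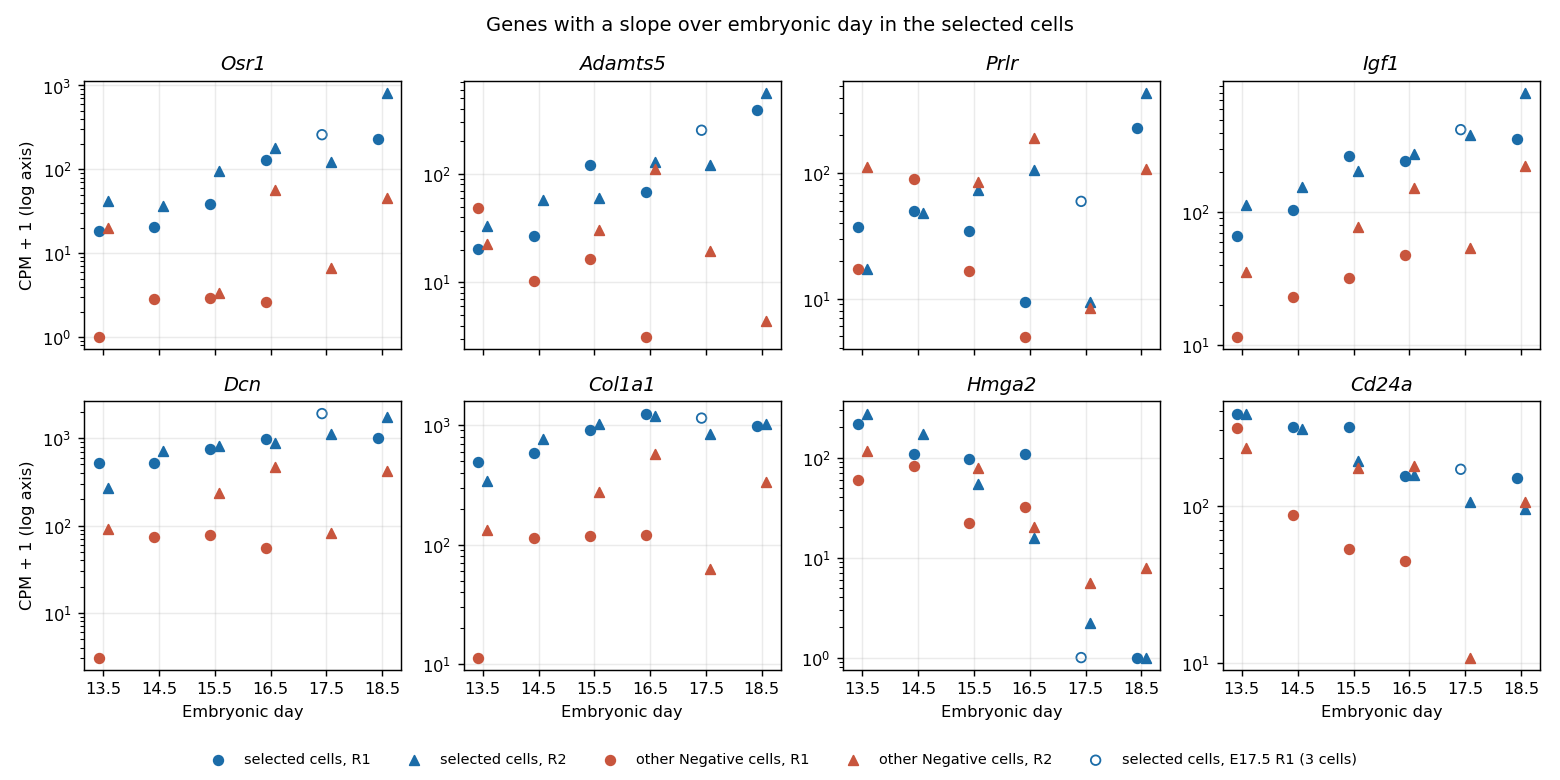
CPM plus 1 (log axis) against embryonic day for 8 genes with a slope in the selected cells, 1 point per pool, with colours and symbols for selected and other Negative cells and for R1 and R2 and an open circle for the 3-cell pool. Osr1, Adamts5, Igf1 and Dcn climb, Prlr of the selected cells is highest at E18.5, Col1a1 climbs to E16.5, Cd24a falls, and Hmga2 of the selected cells reaches 0 at E18.5.

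Counts in the signalling lists stood beside 1.18% of all genes that passed in either direction, a share at which lists of this size may hold none. In the Hedgehog list 0 of 13 tested genes passed, and the receptor and target Ptch1 had a slope of 0.24 ± 0.08 (adjusted p = 0.144), with 115 and 183 CPM at E13.5 and 451 and 472 CPM at E18.5. None of 6 PDGF genes passed. Pdgfra lay near the threshold, with 128 and 124 CPM at E13.5, 534 and 264 CPM at E18.5 and a slope of 0.26 ± 0.06 (adjusted p = 0.0502). It passed in several other fits, among them those with DESeq2 size factors (0.0257), thinned cells (0.0329), the replicate block (0.04) and without E18.5 R2 (0.046). It did not pass in most leave-one-out fits, among them those without E13.5 R1 (0.092), E13.5 R2 (0.164) or E18.5 R1 (0.255). Nor did it pass without the s0307 pools (0.404), for the 2 latest against the 2 earliest time-points (0.199) or with the depth covariate (0.279). None passed of 12 Notch, 15 retinoic acid and 14 steroidogenesis genes, and Cyp11a1 among the last was capped by the rule. Of 27 Wnt and R-spondin genes, the transcription factor Tcf7l2 rose (0.27 ± 0.06, adjusted p = 0.0299) and the secreted antagonist Dkk1 fell (-1.61 ± 0.38, adjusted p = 0.0379). Dkk1 had 193 UMIs in E13.5 R2 and none in the 3 late pools. Both rested on single pools, since Tcf7l2 lost the call without E14.5 R1 or E18.5 R2 (up to 0.306) and Dkk1 in 6 of 11 leave-one-out fits (up to 0.27).

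Among 21 contractile genes only Srf, the serum response factor, passed, beside 1.18% of all genes. Srf fell by 0.73 ± 0.16 log2 per day (adjusted p = 0.0212), a call lost without E13.5 R2 or E18.5 R2 (up to 0.178). The slope of Acta2 was -0.09 ± 0.14 (adjusted p = 0.829) and 0.07 without E18.5 R2 (0.723). The median slope of the 7 myoid markers likewise went from -0.08 to 0.07 without that pool. None of the 7 passed in either fit. Tcf21 did not pass either, with a slope of 0.04 ± 0.10 (adjusted p = 0.893). Nr2f2 had a slope of 0.06 ± 0.05, which is a description, since the rule held its level above a bound in every cell. Of 21 imprinted growth genes, Dlk1 and Meg3, neighbours in 1 imprinted cluster, rose by 0.28 ± 0.06 and 0.22 ± 0.05 per day, and Nnat fell. This stands beside 0.91% of all genes that rose and 0.274% that fell. The median slope of the list was -0.02, against -0.01 over all genes, and 10 of the 21 slopes were above 0. Dlk1 lost the call without E13.5 R2 or E18.5 R2 (up to 0.127), and Meg3 in 7 of 11 leave-one-out fits (up to 0.341).

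None of 43 G1/S genes and none of 53 G2/M genes passed in either direction, with median slopes of -0.04 and -0.15 against -0.01 over all genes, and 47 of the 53 G2/M slopes were not above 0. When each cell was thinned to 50000 UMIs, Mki67, a protein of cycling cells, had a UMI in 187 of 237 selected cells (78.9%, 73.2% to 83.9%). This share was 70% and 88.9% at E13.5 (R1 and R2), 95.5% and 80.5% at E14.5, 96.3% and 69.6% at E15.5, 93.8% and 91.7% at E16.5, 50% at E17.5 (R2, 6 cells) and 58.8% and 20% at E18.5 (17 and 10 cells). The intervals of the last 3 pools were 11.8% to 88.2%, 32.9% to 81.6% and 2.52% to 55.6%. Top2a, another G2/M gene, had a UMI in 207 of the 237 thinned cells (87.3%, 82.4% to 91.3%). Its share was 83.3% to 100% in the pools of E13.5 to E16.5. It was 100% at E17.5 (R2), where that of Mki67 was 50%, and 58.8% and 40% at E18.5. The 2 genes thus differ at E17.5.

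Some genes of other cell types also had a slope, beside 1.18% of all genes that passed in either direction. Of the 7 germ cell markers, Dppa3 fell from 187 and 81.7 CPM at E13.5 to 2.73 and 2.34 CPM at E18.5 (slope -1.19 ± 0.23, adjusted p = 0.0125), and lost the call without E13.5 R1 (0.0975). Dppa3 is also the gene whose sequence drives the ECFP reporter of these mice. The germ cell gate changed between E13.5 and E14.5, and the part of that change in the slope of Dppa3 was not tested. Mael, a germ line gene of the piRNA pathway, rose from 20.5 and 16.3 CPM at E13.5 to 93.3 and 147 CPM at E18.5 (0.70 ± 0.12, adjusted p = 0.00591). Of the 6 endothelial markers, Cdh5 rose from 0.23 and 0 CPM at E13.5 to 97.2 and 93.7 CPM at E18.5 (1.36 ± 0.24, adjusted p = 0.00591), with 1.21 CPM at E17.5. Pecam1, another endothelial marker, was at 0.412 to 8.32 CPM in the 11 pools. The part of other cells or of free RNA in these slopes was not tested. None of 10 Sertoli, 6 fetal Leydig, 5 leukocyte, 4 erythroid and 6 pericyte markers tested had a slope that passed. Sox9 and Cyp11a1 are among them and were capped by the rule, as was Ddx4 among the germ cell markers. The slopes of these rule genes were not free to vary.

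When each time-point was set against the one before, edgeR called no gene at the steps to E14.5, E15.5 and E16.5, and 481, 372 and 512 of 15706 genes had an unadjusted p under 0.05. Without the filter on low counts 7, 5 and 26 genes were called. At E17.5 against E16.5, 1 gene rose (0.00637%) and 33 fell (0.21%), or 0.216% in either direction. At E18.5 against E17.5, 60 rose (0.382%) and 62 fell (0.395%), or 0.777%. Both steps rest on the single E17.5 pool of 8 cells. The largest values in both came from Shisa4, Stk16 and Pno1, which had 0 UMIs in that pool (up to 3.62 CPM). At E16.5 they lay at 144 and 74, 56.5 and 90.5, and 55 and 84.8 CPM, and at E18.5 at 122 and 82.8, 45.7 and 114, and 84.3 and 77.3 CPM. In the 3 cells of E17.5 R1, which were not in the fit, they were at 207, 24.1 and 62 CPM. The genes that fell most from E17.5 to E18.5 were Trac, Ptgds and Clu, at 136, 289 and 300 CPM in E17.5 R2 and at 0 to 14.1 CPM in both E18.5 pools. Ptgds and Clu are Sertoli cell genes, and this pool had the highest Sertoli marker sum, whose part in the change was not tested. Ptgds is itself a marker in that sum, so the sum partly restates its level.

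Within each of 9 pools with at least 5 cells of each class, the selected cells were set against the other Negative cells. As the rule chose cells by their transcripts, this is a description without a test. Among 3439 genes whose mean log2 CPM was 6 or more, 266 (7.73%) were higher and 289 (8.4%) were lower in the selected cells in every pool. The 12 with the largest median ratio were Gucy1a1, Mfap4, Sostdc1, Tgfb1i1, Lsp1, S100a6, Pmp22, Dcn, Islr, Bgn, Emilin1 and Htra3. Gucy1a1, a subunit of the nitric oxide receptor guanylate cyclase, had a median of 460 CPM (197 to 563) in the selected and 57.6 CPM (7.77 to 168) in the other cells, a log2 ratio of 3.25. Mfap4, Bgn and Emilin1 are matrix proteins and had ratios of 3.21, 2.73 and 2.72. Sostdc1, a secreted antagonist of BMP and Wnt ligands, had a ratio of 3.08. Exons of Islr overlap Islr2 on the same strand, so its counts are uncertain.

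The 12 lowest were AC167229.1, Amh, Cited1, Gatm, Tmem184a, Serpina3a, Mcrip2, Gstm7, Kazald1, Susd3, Cst9 and Acsbg1. Amh had a median of 27.3 CPM (0 to 40.1) in the selected and 353 CPM (159 to 765) in the other Negative cells. The rule had removed cells with Sox9, and 149 of the 205 other Negative cells failed on Sox9, so genes of Sertoli cells were bound to be low.

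**Figure D4:**
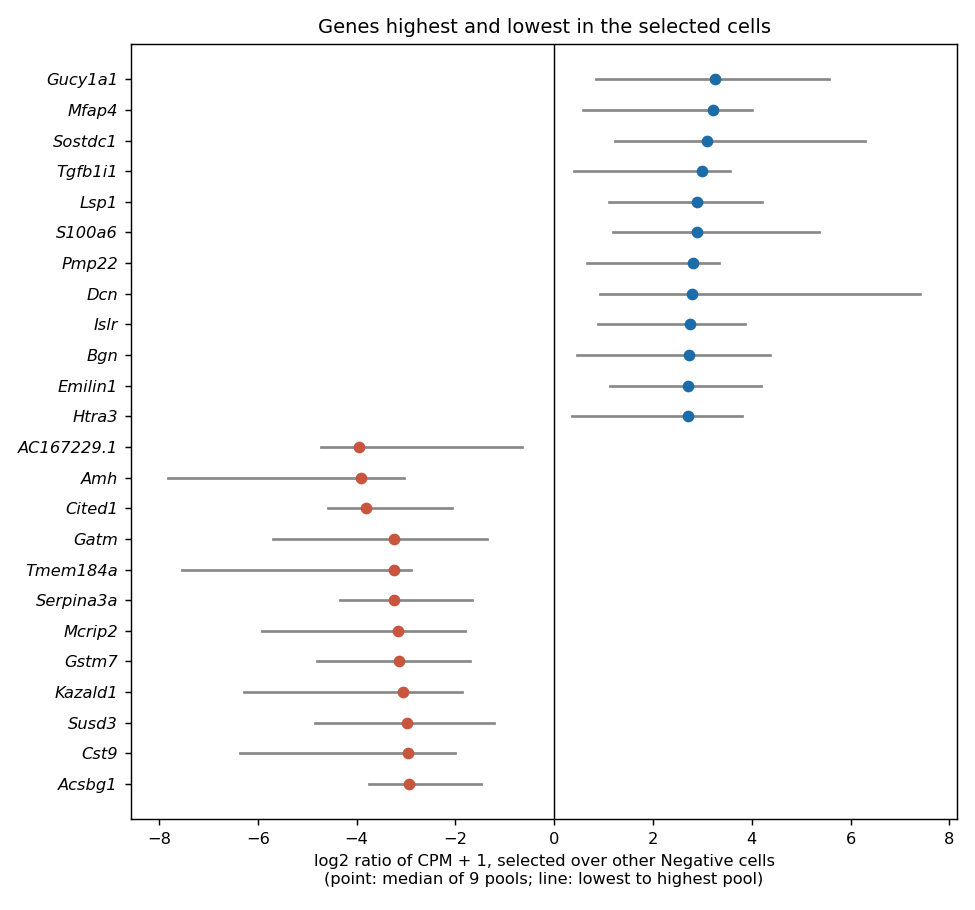
Median over 9 pools (points) and range from the lowest to the highest pool (lines) of the log2 ratio of CPM plus 1, selected over other Negative cells, for the 12 highest genes (blue) and the 12 lowest (red). The medians run from 3.25 for Gucy1a1 to -3.95 for AC167229.1, and no line crosses 0.

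In the Hedgehog and PDGF lists a ligand was lower and receptors were higher in the selected cells. The rule fixed part of this contrast, since most of the other Negative cells had failed on Sox9. Genes of Sertoli cells, ligands among them, were therefore bound to be lower in the selected cells. Dhh, the ligand of the Hedgehog pathway, was lower in the selected cells in all 9 pools (13.3 against 213 CPM, medians), though its exons overlap Rhebl1 on the same strand and its counts are uncertain, while Gli1, a target of the pathway, and the coreceptors Gas1 and Boc with Smo and Gli3 were higher in all 9. The receptor and target Ptch1 was higher in 8 of 9, with medians of 183 and 101 CPM. In the PDGF list the ligand Pdgfa was lower in all 9 pools (41.4 against 115 CPM), and the receptors Pdgfra (226 against 53.8 CPM) and Pdgfrb (71.5 against 18.7 CPM) were higher in all 9. In the IGF and Wnt lists ligands were found on the higher side too. Igf1 with Igfbp4, Igfbp5 and Igfbp6, and Wnt5a with Fzd2, Tcf7l2 and Sfrp1, were higher in all 9, and Wnt6, another ligand, was lower in all 9. Of 41 matrix genes 16 were higher and 2, Col18a1 and Fbln2, were lower in all 9, with a list median of 1.43. Of 21 imprinted growth genes 8 were higher, among them H19, Dlk1, Meg3 and Mest, and Snrpn was lower. The growth hormone receptor Ghr was higher in all 9, and Amhr2, the receptor of the Sertoli hormone, was lower. The median over the 3439 genes with a mean log2 CPM of 6 or more was -0.02, and 7.73% of them were higher and 8.4% lower in all 9. The lists were not held to that bound on level, so lists and reference are unlike sets.

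The slopes of the 2 classes were then compared in 1 fit with the pool as a block, over the same 9 pools, which is a test of the difference itself. Of 17746 genes, 2 (0.0113%) passed, both with a lower slope in the selected cells, and 1264 had an unadjusted p under 0.05. They were Gm2694, a long noncoding RNA named here after its values were seen, and Dusp6 (chr10:99263231-99267489), a phosphatase of ERK kinases induced by growth factor signalling. Dusp6 in the selected cells was at 99.3 and 283 CPM at E13.5, 119 at E14.5 (R1), 20.3 and 65.1 at E15.5, and 46.3 and 85.7 at E16.5, with 12 UMIs at E17.5 (R2) and 1 UMI at E18.5 (R2, 0.781 CPM). In the other Negative cells it was at 44 and 215, 183, 142 and 177, 177 and 214, 104, and 65.4 CPM. From E15.5 on the selected cells lay below the other Negative cells of their pool. The difference of slopes was -1.02 ± 0.17 log2 per day (adjusted p = 0.0165), and no gene passed without E13.5 R1 or without E16.5 R1. For the genes that rose in the selected cells, such as Osr1 and Igf1, no difference of slope passed, and the other Negative cells are a mix of cell types.

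The selected cells varied widely in smooth muscle actin. Acta2 ranged from 0 CPM in 23 cells to 5438 CPM, and 179 of 266 cells (67.3%, 61.3% to 72.9%) were at or above 200 CPM. This bound divides a range and not 2 types, since 75 cells lay between 100 and 400 CPM. The share was 94.7% in E13.5 R2 (74% to 99.9%) but 50% in E13.5 R1 (33.4% to 66.6%), 71.4% to 77.3% in 5 of the 6 pools of E14.5 to E16.5 and 91.3% in E14.5 R1 (72% to 98.9%). At E18.5 it was 50% in R1 (28.2% to 71.8%) and 7.14% in R2 (0.181% to 33.9%), or 1 of 14 cells. It was 50% in E17.5 R2 (15.7% to 84.3%). With each cell thinned to 50000 UMIs the share over all pools was 69.2% (62.9% to 75%), and without E18.5 R2 it was 70.6% (64.6% to 76.2%).

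The progenitor markers Tcf21 and Pdgfra were found on both sides of the bound. Tcf21 was at or above 100 CPM in 77.7% of the 179 Acta2-high cells and in 70.1% of the 87 others, and Pdgfra in 74.3% and 72.4%. Median depth was 161153 and 116689 UMIs. Within the 8 pools with at least 3 cells on each side, most interstitial progenitor markers leaned to the Acta2-low side. The list of 10 had a median log2 ratio of -0.13, Acta2-high over other selected cells, and 2 of the 10 had a ratio above 0. None was higher or lower in all 8 pools.

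**Figure D5:**
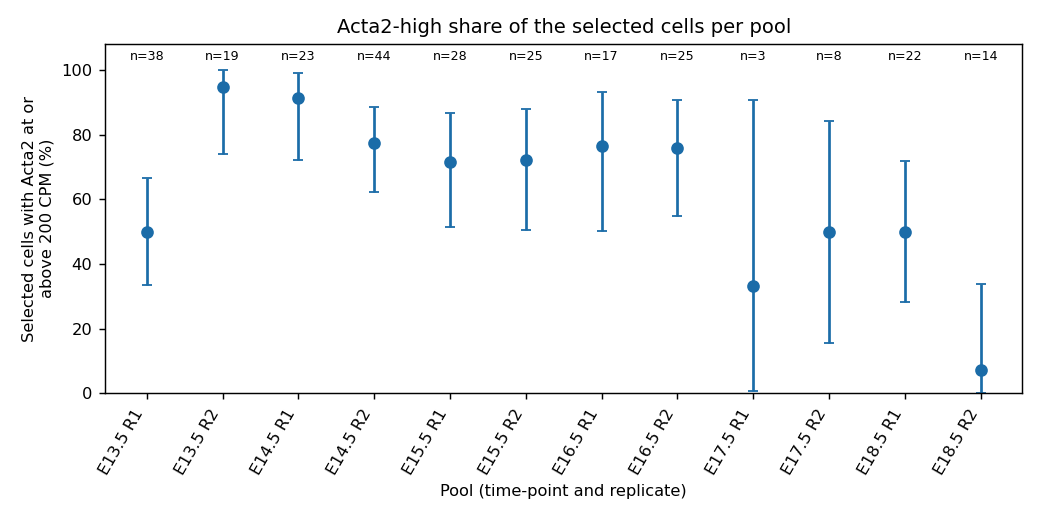
Share of the selected cells with Acta2 at or above 200 CPM in each pool (percent, points) with exact 95% intervals (bars) and the number of cells above. E13.5 R2 is highest at 94.7% and E18.5 R2 lowest at 7.14%.

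In 8 pools with at least 3 cells on each side, the 2 sides were compared within pools, again as a description. Of 3244 genes whose mean log2 CPM was 6 or more, 28 (0.863%) were higher and 14 (0.432%) lower in the Acta2-high cells in all 8 pools. Beside Acta2 itself, the highest were Tpm2, Myl9, Mgp, Cnn2, Phldb2, Fhl2 and Abracl. Tpm2, a tropomyosin, had medians of 375 and 135 CPM, and Myl9, a myosin light chain, of 739 and 418 CPM. Leaving out Acta2, which divides the classes, 5 of 20 contractile genes were higher in all 8 pools, which were Myl9, Cnn2 and Tpm2 with the scarcer Myh11 (medians 89.7 and 3.53 CPM) and Lmod1 (38.1 and 0.518 CPM), and none was lower in all 8. The list median was 1.17, against 0.02 over the 3244 genes with a mean log2 CPM of 6 or more, a bound to which the list was not held. Notch3 was higher in all 8 pools too (52 and 17.9 CPM), and Heyl, a Notch target, in 7 of 8 (150 and 52.6 CPM). Notch3 is also a pericyte marker. Of the 6 pericyte markers, 5 had a median ratio above 0 and 1, Notch3, was higher in all 8 pools. Their list median was 1.21, and the part of pericytes in these differences was not tested. Mgp was the matrix gene that was higher in all 8.

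The genes lowest in the Acta2-high cells were Nr5a1, Maoa, Tmem107, Robo2, Nav1, Ccnf, Fip1l1 and Rchy1. Nr5a1 (SF1), a factor of gonadal progenitors and steroidogenic cells, had medians of 43.7 CPM in the Acta2-high and 93 CPM in the other selected cells. Its ratio was close to 0 in the pool where it was smallest (-0.04). In E17.5 R2 each side has 4 cells, and without this pool 49 genes were higher and 33 lower in all of the 7 remaining pools.

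Because 5 contractile genes other than Acta2 were higher in the Acta2-high cells in all 8 pools, the promoters of the list were searched for the CArG box, the binding motif of SRF, on both strands (the motif reads alike on both). RefSeq promoters on GRCm38.p6, 250 bases before to 50 after the start, were found for 14 of the 21 genes, and not for Myocd, Mkl1, Mkl2, Actg2, Myh11, Tagln and Itga7. A box was found for 3 of 14 genes (21.4%), against 488 of 27025 genes with a promoter (1.81%). Of the 5 higher genes, Cnn2 and Myl9 had a box in this window, Tpm2 and Lmod1 had none, and Myh11 could not be searched. Acta2, which divides the classes, had none either, and the third gene with a box was Srf itself. No other motif was searched. The 3 genes are shown with 10 bases on either side and the box in capitals, read 5′ to 3′ on the gene's strand, because Cnn2 and Myl9 were higher in the Acta2-high cells in all 8 pools while Srf was higher in 4 and lower in 4.
Cnn2, chr10:79988534-79988563 (plus strand): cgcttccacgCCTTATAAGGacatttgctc
Myl9, chr2:156775293-156775322 (plus strand): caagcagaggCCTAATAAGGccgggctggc
Srf, chr17:46556225-46556254 (minus strand): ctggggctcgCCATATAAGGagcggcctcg
Srf, chr17:46556205-46556234 (minus strand): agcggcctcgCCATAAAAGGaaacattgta

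Along the gonad, selected cells made up 58 of 124 Negative cells of the proximal piece (46.8%), 72 of 126 of the central piece (57.1%) and 89 of 128 of the distal piece (69.5%) from E13.5 to E16.5. The share was higher in the distal than in the proximal piece in 7 of 8 pools and lower in E16.5 R2, where 13 of 16 proximal and 5 of 16 distal cells were selected. Within a piece the pools ranged from 12.5% to 86.7% (proximal) and from 31.2% to 100% (distal), so the spread between pools exceeded the difference between pieces. The pieces of a pool are paired, so this spread does not measure the difference within pools. No test was made of these shares.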

How the data were processed

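The authors made the libraries with a modified STRT-seq that captures 3′ ends of transcripts. UMI-tools read barcodes and UMIs, seqtk was used for trimming, STAR aligned the reads to mm10, and Subread's featureCounts assigned them to genes. CASAVA 1.8 is also named in the submitters' processing notes. The deposited values are UMI counts per gene and cell without normalization (31053 genes). The 147 libraries carry only a code in their own labels, so time-point, gate, replicate and position were taken from the deposited table of cells, which names each cell's library. UMI and gene totals of the 480 Negative cells matched that table, and 471 passed the authors' filter (more than 2000 genes, 10000 to 1000000 UMIs). Wells were filled singly and no caller of doublets was run.

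The selected cells and gene lists were chosen with earlier results of these data known. Counts were summed per pool with at least 5 selected cells and tested with edgeR 4.0.16 (quasi-likelihood, TMM, filterByExpr by time-point, R 4.3.3, limma 3.58.1) at a Benjamini-Hochberg adjusted p of 0.05. Ratios between classes used log2(CPM + 1). Cells were not taken as replicates in any test. Intervals of shares are exact Clopper-Pearson and cover counting error only, as does the limit that a count of 0 allows (3 UMIs of the total). Named genes are, at a mean log2 CPM of 6 or more, the 12 largest changes each way among those past the threshold or, for class ratios, of 1 sign in every pool (3 for each step and for the difference of slopes, 8 for the Acta2 classes), without Gm, Rik and mt- names, and members of 13 pathway and 11 marker lists. Some genes that meet this rule are not reported here. Positions are of GENCODE M21 (GRCm38), and the counts may rest on another release. On simulated data with 200 changed genes the slope fit (14903 genes) recovered 65% of slopes of 0.5 log2 per day and 10% of slopes of 0.25. The changed genes were drawn only from those above a bound on mean level, so recovery of scarcer genes was not measured. The step from E14.5 to E15.5 (14951 genes) recovered 34% of changes of 2 log2 and 2% of changes of 1, and the difference of slopes (15258 genes) 10% of 0.5 and 0% of 0.25. Of the genes called, 6.25%, 21.7% and 28.6% were false. Alternatives were DESeq2 1.42.0, its size factors, other filters, bounds and depths, a replicate block and leaving out each pool.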

Additional observations from a re-analysis of the deposited data

Results flagged for a closer look

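For 2 genes the slope over embryonic day differed between the selected and the other Negative cells by a test of the difference itself. The slope of Gm2694 was lower by 1.32 log2 per day in the selected cells (value -1.32, edgeR adjusted p = 0.00556). In the selected cells it was at 150 and 178 CPM at E13.5, 141 at E14.5, 17.2 and 20.2 at E15.5, 10.9 and 3.53 at E16.5, 8.44 at E17.5 and 14.1 at E18.5. In the other Negative cells it was at 65.8 and 153, 66, 87.9 and 23.4, 169 and 101, 83, and 443 CPM. The selected cells lay above the others in all 3 pools of E13.5 and E14.5 and below them in all 6 later pools. Its exons overlap Gm19872 on the same strand, so reads of the 2 genes cannot be told apart. The difference for Dusp6 was -1.02 log2 per day, with the levels given above. Neither gene passed without E13.5 R1 or without E16.5 R1. No group has 4 to 10 pools, so none was searched for a single pool far from its group.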

How the results depend on the processing

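The count of genes with a slope (186) was 598 with the DESeq2 Wald test (which gave no adjusted p for 1523 genes), 682 without the filter on low counts, 103 for the 2 latest against the 2 earliest time-points and 37 in cells with Acta2 under 200 CPM. Leaving out 1 pool gave 84 (without E18.5 R2) to 229, with 104 without E13.5 R2. It was 198 with cells thinned to 50000 UMIs (12756 genes tested) and 154 with a replicate block. Deviations of same-numbered pools from the time-point means correlated at -0.114 to 0.199 over 10 pairs of time-points. E13.5 R1 and E18.5 R1 also share library codes that begin s0307, so these 2 share more than a number. Alternatives chosen after seeing the data gave 17 for E13.5 to E16.5 only, 19 with median depth as a covariate, 55 without E14.5 R2 and E18.5 R2, and 229 without the s0307 libraries. Depth, animals per replicate and the cutting into pieces changed with day, so the parts of these and of day cannot be told apart. With the covariate 7 of the 41 called genes that are named or listed passed, among them Adamts5, Igf1, Tmem100, Hmga2 and Cd24a. None of the 41 changed sign in any fit. The 5 steps between neighbouring time-points gave, in order, 7, 5, 26, 187 and 341 genes without the filter, and the step to E17.5 gave 21 with DESeq2 size factors. With the replicate block the 5 steps gave 0, 0, 0, 40 and 154 genes. The difference of slopes gave 8 genes against Sox9-high cells only, and 0 to 15 without 1 pool. With Acta2 bounds of 100 and 400 CPM the share was 77.1% and 48.9%. Against Sox9-high cells 422 genes were higher and 484 lower in every pool, and without E17.5 R2 49 were higher and 33 lower in the Acta2-high cells. The cause of these changes was not tested. In E17.5 R2 a count of 0 allows up to 3.62 CPM, so scarce genes are poorly measured there.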

Other observations

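Xist was at 0 to 2.41 CPM in the selected cells of E13.5, E17.5 and E18.5 and at 6.53 to 37.5 CPM in the 6 pools of E14.5 to E16.5, while Ddx3y, a gene of the Y chromosome, was at 41.2 to 127 CPM in all 12 pools. Cyp11a1 in the selected cells was at 132 to 273 CPM in 6 pools, including the 3-cell pool, and at 0 to 5.41 CPM in 5 others, with E13.5 R1 in between. Cyp11a1 was part of the rule, which left out cells at or above 500 CPM. In the T cell receptor segment Trac (chr14:54220521-54224206), between 31 and 137 CPM was counted in the selected cells of the 8 pools from E13.5 to E16.5, and 0 to 1.17 CPM at E18.5.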
